A study of Ciona robusta with 6 samples.

Results

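The genes described here are 5 neuronal microtubule genes of the tunicate *Ciona robusta*, *alpha-Tubulin* (KH2013:KH.C8.892), *Dcx* (KH2013:KH.C9.150), *Saxo* (KH2013:KH.C10.475), *Kif26* (KH2013:KH.C11.185) and *Dpysl* (KH2013:KH.C2.307), picked by identifier out of 15232 gene models in the count table. All 5 passed the filter on low counts. They were followed across cells of the bipolar tail neuron (BTN) lineage, sorted from embryos at 9.5 hpf (hours post-fertilization) raised at 20°C. All embryos carried a *Neurog* > BFP or RFP reporter, which marked the cells for sorting. In *Neurog* > *Neurog*, the same lineage driver overexpressed the neuronal transcription factor Neurog, and in *Neurog* > *Neurog:WRPW* it expressed a dominant-repressor form of it. In *Neurog* > *lacZ*, the control, it expressed a bacterial enzyme. The study states that in this control a few cells per embryo become BTNs, while the other lineage cells are at first broadly epidermal. It states that all these cells become BTNs in *Neurog* > *Neurog*, and that *Neurog* > *Neurog:WRPW* abolishes BTN fate. Each condition had 2 libraries, which by the study's methods were biologically independent. The sort used no counterselection, so any cell with reporter signal could enter a library. The study names leaky activity of the driver in other tissues as a possible source of false positives.

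Microtubules are hollow polymers of alpha- and beta-tubulin dimers. In young neurons they fill the growing axon, carry its cargo and link the nucleus to the leading process of a migrating cell. Proteins that bind, stabilize or deliver tubulin, and kinesins that walk on or anchor to the polymer, shape this array. BTNs are migratory neurons of the tadpole tail that extend a pair of processes in opposite directions, which requires such an array.

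The transcripts that 4 of the 5 names stand for can be read from the study's in situ hybridization probe templates. The first 120 bases of each are shown, 5′ to 3′ in lower case, to fix which transcript each gene name means. The templates of *Dcx* and *Kif26* were RT-PCR products and those of *Saxo* and *Dpysl* synthetic DNA.
Dcx: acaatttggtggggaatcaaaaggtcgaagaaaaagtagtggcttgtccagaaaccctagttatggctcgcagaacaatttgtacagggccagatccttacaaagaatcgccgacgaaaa
Saxo: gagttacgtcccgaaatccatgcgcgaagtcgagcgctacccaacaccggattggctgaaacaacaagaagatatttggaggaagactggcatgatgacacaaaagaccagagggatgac
Kif26: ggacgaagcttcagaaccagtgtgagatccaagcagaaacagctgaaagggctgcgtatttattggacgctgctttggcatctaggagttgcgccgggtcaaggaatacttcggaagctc
Dpysl: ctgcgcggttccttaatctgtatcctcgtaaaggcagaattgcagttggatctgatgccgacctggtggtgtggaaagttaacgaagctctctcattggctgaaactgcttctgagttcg

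The library totals ranged from 10315548 to 24499397 counts. Neurog:WRPW replicate 2 had the lowest total and the fewest gene models detected, 13009 against up to 14497 elsewhere, and by the study's methods it came from the fewest sorted cells. Neurog:WRPW replicate 1 came from the most. The study names this gap in cell number as a possible reason for lower statistical support in Neurog:WRPW. *Neurog* (KH.C6.129), the gene overexpressed, was at 3934 and 3975 CPM (counts scaled by TMM to a common library size) in *Neurog* > *Neurog*, against 90.1 and 134.0 CPM in *Neurog* > *lacZ*. The libraries labelled Neurog:WRPW had 109 and 190.3 CPM of it and overlapped lacZ, although their plasmid also encodes Neurog, so this gene alone does not bear out that label. The study left *Neurog* out of its own comparison with published BTN genes because plasmid reads confound its count. The driver, used in every condition, also holds the start of the *Neurog* transcript. Below, Neurog:WRPW stands for the libraries so labelled, also where a direction is drawn from them. The BTN marker *Asic*, an ion channel gene, had 450.5 and 189.9 CPM in Neurog, 14.6 and 1.33 in Neurog:WRPW and 73.6 and 44.8 in lacZ. Of the 5 genes, *Dcx* and *Saxo* are on the study's in situ hybridization list of BTN genes. By the same method the study listed *Kif26* as unclear and *Dpysl* as negative. The study regards most unclear genes as likely true positives, and proposes that many negative ones are present in BTNs below detection. For *alpha-Tubulin* it read clear BTN expression from database images of in situ hybridization. The remaining 46 genes of the BTN list summed to 6241 to 11430.2 CPM in Neurog, 727 to 1372 CPM in Neurog:WRPW and 1501 to 2542 CPM in lacZ, with 5 of them at 0 in a Neurog:WRPW library. The study's 15 genes of other CNS cells summed to 1558 to 1770 CPM in Neurog, 252 to 256 CPM in Neurog:WRPW and 467 to 470.0 CPM in lacZ, with 2 at 0 in a Neurog:WRPW library. Its 13 genes of other tissues summed to 635 to 711 CPM in Neurog, 118 to 143 CPM in Neurog:WRPW and 248 to 275 CPM in lacZ, with 1 at 0 in a Neurog:WRPW library and 1 in a lacZ library. The study's text counts slightly more BTN genes and more genes of other tissues than the lists used here hold. The study picked these lists with these libraries in view, and the part of any cell type in the values below was not tested. In bulk libraries, fewer cells of a type and less RNA per cell cannot be told apart.

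*alpha-Tubulin* encodes a subunit of the polymer itself, and it was the most abundant of the 5 genes in every library when levels were set per length. The Neurog libraries held 9857 and 5600.4 CPM, the Neurog:WRPW libraries 1007 and 729 CPM and the lacZ libraries 2253 and 1380 CPM. No library of one condition overlapped those of another, with Neurog on top and Neurog:WRPW at the bottom. This 1 gene took 1.05% and 0.631% of all counts in the Neurog libraries, 0.0975% and 0.0635% in the Neurog:WRPW libraries and 0.239% and 0.128% in the lacZ libraries. Its LogFC (log2 fold change, with its standard error, SE) was 2.09 in Neurog vs. lacZ (SE 0.41), a 4.26-fold rise. The LogFC of Neurog:WRPW vs. lacZ was -1.07 (SE 0.40), and in Neurog vs. Neurog:WRPW it was 3.15 (SE 0.42). A gene was called where the LogFC lay beyond 0.6 or -0.6 with an unadjusted p under 0.05, the study's thresholds, and *alpha-Tubulin* passed in all 3 comparisons. The unadjusted p of the fall in Neurog:WRPW was 0.0341 by the quasi-likelihood test of edgeR. That call was lost without Neurog:WRPW replicate 1 (LogFC -1.32), without Neurog:WRPW replicate 2 (-0.85) and without lacZ replicate 1 (-0.65). Tubulin genes have near-identical copies among which reads can be divided, so this value is uncertain as that of a single gene. The reads came to 95.7 and 52.7 counts per base in Neurog, 10.1 and 3.46 in Neurog:WRPW and 21.4 and 16.6 in lacZ after duplicate reads had been removed, and how much that removal lowered the higher values was not tested.

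*Dcx* encodes Doublecortin, which in mammals binds and stabilizes microtubules of migrating neurons and growing axons. The Neurog libraries held 293 and 173 CPM, the Neurog:WRPW libraries 24.2 and 11.5 CPM and the lacZ libraries 68.2 and 29.5 CPM. The order of the conditions was that of *alpha-Tubulin*, again with no overlap, although the lower lacZ library stood close to the higher Neurog:WRPW one. *Dcx* rose by a LogFC of 2.25 in Neurog vs. lacZ (SE 0.56) and by 3.70 in Neurog vs. Neurog:WRPW (SE 0.60). Its LogFC against lacZ was -1.44 in Neurog:WRPW (SE 0.55, unadjusted p = 0.0381 by the quasi-likelihood test of edgeR). That fall no longer passed without Neurog:WRPW replicate 2 (LogFC -1.01) or without lacZ replicate 1 (-0.70).

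*Saxo* encodes a stabilizer of axonemal microtubules, whose human relative binds the microtubules of centrioles and cilia. The Neurog libraries held 73.1 and 19.6 CPM, the Neurog:WRPW libraries 4.33 and 0 CPM and the lacZ libraries 15.3 and 8.03 CPM. These came from 1344 and 349 counts in Neurog, 82 and 0 counts in Neurog:WRPW and 276 and 183 counts in lacZ. A count of 0 in Neurog:WRPW replicate 2 allows up to 0.334 CPM (a floor of 3 counts, for counting error only). The conditions did not overlap, but the Neurog libraries differed 3.73-fold from each other, the widest replicate gap of the 5 genes in Neurog. *Saxo* was called in Neurog vs. Neurog:WRPW, with a LogFC of 4.30 (SE 1.35), and lost this call without Neurog replicate 1 (LogFC 3.13, SE 1.54). Against lacZ its LogFC was 1.99 in Neurog (SE 1.20) and -2.31 in Neurog:WRPW (SE 1.26), neither past the threshold (unadjusted p = 0.147 and 0.115 by the quasi-likelihood test of edgeR). With the replicate number as a block both passed, at 1.71 (SE 0.64) and -2.82 (SE 0.75), with adjusted p-values of 0.309 and 0.602 in edgeR. The rise in Neurog vs. lacZ also passed without either Neurog:WRPW library (LogFC 1.99 each, with an SE of 0.68).

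*Kif26* encodes a kinesin of a family whose mammalian members bind microtubules without moving along them by ATP. It had the closest replicates of the 5 genes in each condition, with 128 and 134 CPM in Neurog, 7.44 and 5.78 in Neurog:WRPW and 25.6 and 17.7 in lacZ. The 3 conditions did not overlap. Its LogFC was 2.60 in Neurog vs. lacZ (SE 0.29), -1.70 in Neurog:WRPW vs. lacZ (SE 0.29) and 4.30 in Neurog vs. Neurog:WRPW (SE 0.32). By p it ranked 5, 4 and 3 among the 12253 genes tested in these comparisons. It was 1 of 5 genes with an adjusted p under 0.05 in Neurog vs. Neurog:WRPW (0.0284, the quasi-likelihood test of edgeR, Benjamini-Hochberg adjusted), against 0.0408% of all genes. Its 3 calls, which rest on the unadjusted p, held under each of the 13 alternative settings run, including each library left out in turn. Its adjusted p in Neurog vs. Neurog:WRPW did not stay under 0.05 in all of them. With only the 2 groups compared it was 0.0673 by the quasi-likelihood test of edgeR.

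*Dpysl* encodes a dihydropyrimidinase-like protein, of the family of collapsin response mediators, which in vertebrates bind tubulin and act in axon growth. The Neurog libraries held 44.2 and 41.3 CPM, the Neurog:WRPW libraries 2.80 and 5.23 CPM and the lacZ libraries 6.50 and 3.47 CPM. The Neurog libraries stood apart from both other conditions, while Neurog:WRPW and lacZ overlapped. The rise in Neurog vs. lacZ was the largest of the 5 by LogFC, at 3.10 (SE 0.46), or 8.58-fold, and it was 3.43 in Neurog vs. Neurog:WRPW (SE 0.47). In Neurog:WRPW vs. lacZ the LogFC was -0.33 (SE 0.45, unadjusted p = 0.484 by the quasi-likelihood test of edgeR). Taken by replicate number, that log2 ratio was -1.18 for the first libraries and 0.58 for the second, and its sign turned without Neurog:WRPW replicate 1 (0.07) or lacZ replicate 1 (0.20).

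**Figure D1:**
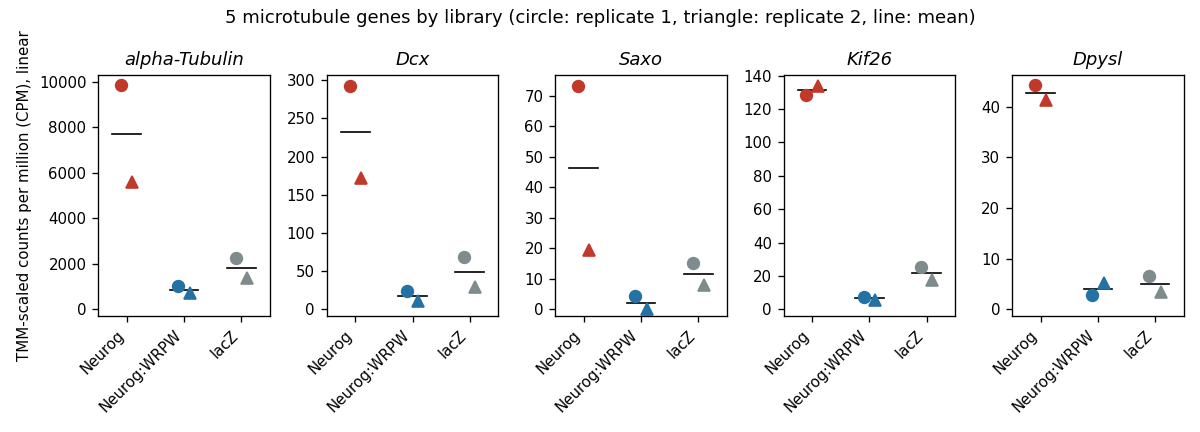
TMM-scaled CPM (linear axis, one scale per gene) of the 5 genes in the Neurog, Neurog:WRPW and lacZ libraries, with circles for replicate 1, triangles for replicate 2 and a line at the mean of 2. The Neurog points are on top for every gene, and Neurog:WRPW lies below lacZ for all but *Dpysl*, where 2.80 and 5.23 CPM overlap 6.50 and 3.47 CPM.

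Read together, 4 of the 5 genes rose in Neurog vs. lacZ, against 4.36% of all genes tested. Of the 5, 3 fell in Neurog:WRPW vs. lacZ, against 1.19% of all genes tested. In Neurog vs. Neurog:WRPW 5 of 5 rose, against 7.08%. Both comparisons with lacZ share the lacZ libraries. The 3 genes *alpha-Tubulin*, *Dcx* and *Kif26* were up in Neurog and down in Neurog:WRPW, as were 0.473% of genes. By plain order of the CPM values, both Neurog libraries were above both lacZ libraries for 5 of 5 genes (18.6% of all), and both Neurog:WRPW libraries below both lacZ libraries for 4 of 5 (13.7% of all). For 4 of 5 both held (3.97% of all), and both Neurog libraries were above both Neurog:WRPW libraries for 5 of 5 (20.8% of all). The genes were named with results of these libraries known, so these counts describe them and are not independent evidence. The smallest p that an exact permutation test of 2 against 2 libraries allows is 0.333, so the calls rest on a spread pooled over genes.

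How many of these differences passed an adjusted p of 0.05 varied with the tool. By the quasi-likelihood test of edgeR, adjusted after Benjamini and Hochberg over 12253 genes, they were 0.364 for *alpha-Tubulin*, 0.475 for *Dcx*, 0.915 for *Saxo*, 0.178 for *Kif26* and 0.207 for *Dpysl* in Neurog vs. lacZ. No gene tested passed 0.05 there (771 did at an unadjusted p, 144 by edgeR's exact test and 214 by DESeq2, adjusted). All of the 5 but *Saxo* were among both the 144 and the 214. In Neurog:WRPW vs. lacZ all 5 were at 1.00 and again no gene passed (191 unadjusted, 2 by the exact test and 4 by DESeq2, of which *Kif26* was 1, at an adjusted p of 0.0133). In Neurog vs. Neurog:WRPW they were 0.0796, 0.0963, 0.324, 0.0284 and 0.0815 in the same gene order, and all but *Saxo* were under 0.05 by the exact test and by DESeq2.

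Same-numbered libraries deviated together. A fit with the replicate number as a block gave a smaller standard error for each of the 5 genes in Neurog vs. lacZ. The pairing was taken from these same data and not from the labels, so the smaller errors and p-values with it are not independent evidence. With the block, 5 of 5 genes rose in Neurog vs. lacZ (6.64% of all), 4 of 5 fell in Neurog:WRPW vs. lacZ (3.55% of all) and 5 of 5 rose in Neurog vs. Neurog:WRPW (10.1% of all). The standard error of *Dcx* in Neurog vs. lacZ was 0.20 with the block and 0.56 without it, while that of *Dpysl* was 0.43 and 0.46. Adjusted p-values of edgeR with the block in Neurog vs. lacZ were 0.0122 for *alpha-Tubulin*, *Dcx* and *Kif26* and 0.0276 for *Dpysl*, all under 0.05 as were 1.37% of all genes tested in the upward direction. In Neurog vs. Neurog:WRPW they were 0.00137 for the first 3 of these genes, 0.0115 for *Dpysl* and 0.0297 for *Saxo*, against 3.25% of all genes. None of the 5 passed 0.05 with the block in Neurog:WRPW vs. lacZ.

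**Figure D2:**
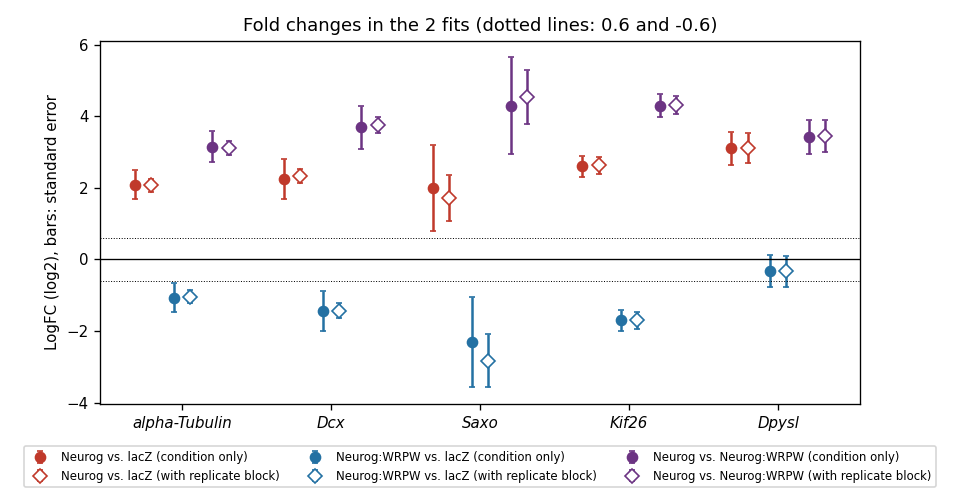
LogFC (log2) of each gene in the 3 comparisons, with bars of 1 standard error, from the fit of conditions only (filled circles) and that with the replicate block (open diamonds). Red is Neurog vs. lacZ, blue Neurog:WRPW vs. lacZ and purple Neurog vs. Neurog:WRPW, with *Dpysl* alone inside the dotted lines at 0.6 and -0.6, at -0.33 in Neurog:WRPW vs. lacZ.

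The libraries did not weigh equally on the 5 genes. In Neurog vs. lacZ, leaving out each library in turn moved the LogFC of *alpha-Tubulin* between 1.67 and 2.51, that of *Dcx* between 1.77 and 3.004 (without lacZ replicate 1) and that of *Dpysl* between 2.71 and 3.65, and every such call was kept. *Kif26* moved least, between 2.36 and 2.92, and *Saxo* most, between 0.80 and 2.65. The number of genes that fell in Neurog:WRPW vs. lacZ was 3 with all libraries and 1, *Kif26*, without Neurog:WRPW replicate 2 or without lacZ replicate 1. *Kif26* ranged there from -1.94 to -1.40. Without Neurog:WRPW replicate 1, *alpha-Tubulin* lost its call at a LogFC of -1.32. *Saxo* kept no usable LogFC in that fit, as the library left had 0 counts of it.

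**Figure D3:**
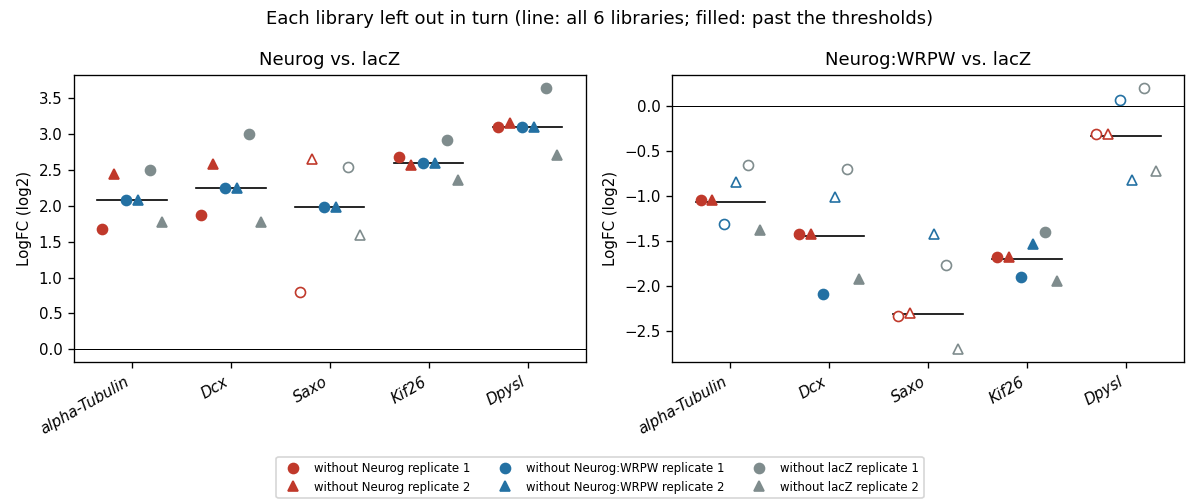
LogFC (log2) of the 5 genes with 1 library left out in turn, in Neurog vs. lacZ (left) and Neurog:WRPW vs. lacZ (right), against the value from all 6 libraries (line); filled symbols passed the thresholds. *Kif26* stays filled throughout, and *alpha-Tubulin* and *Dcx* turn open at -0.65 and -0.70 without lacZ replicate 1; *Saxo* without Neurog:WRPW replicate 1, where only a library with 0 counts remains, is not drawn.

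Levels of different genes can be set side by side only per length, here as RPKM (the CPM value per kilobase of gene length) on the lengths in the deposited table. In the Neurog libraries the mean level was 4085 RPKM for *alpha-Tubulin*, 81.6 for *Dcx*, 42.7 for *Kif26*, 23.2 for *Saxo* and 23.0 for *Dpysl*, and the last of these did not differ from *Saxo* beyond the spread of *Saxo* (SD 19.0, n = 2). In the Neurog:WRPW libraries the means were 459 RPKM for *alpha-Tubulin*, 6.25 for *Dcx*, 2.15 for *Kif26*, 1.08 for *Saxo* and 2.16 for *Dpysl*, and the libraries of the last 3 genes overlapped one another. In the lacZ libraries they were 960.0 RPKM for *alpha-Tubulin*, 17.1 for *Dcx*, 7.03 for *Kif26*, 5.85 for *Saxo* and 2.68 for *Dpysl*, with *Kif26* and *Saxo* overlapping. By RPKM *alpha-Tubulin* ranked 6 and 9 among the 12253 genes in the Neurog libraries, 122 and 221 in Neurog:WRPW and 33 and 86 in lacZ. *Dcx* ranked 723 and 1329 in Neurog, 6064 and 7909 in Neurog:WRPW and 3026 and 5474 in lacZ.

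The ratio of *Dcx* to *alpha-Tubulin*, per 1e3 units of *alpha-Tubulin* RPKM, was 19.7 and 20.4 in the Neurog libraries, 15.9 and 10.4 in Neurog:WRPW and 20.1 and 14.1 in lacZ, where lacZ overlapped both other conditions. That of *Kif26* was 8.01 and 14.7 in Neurog, 4.55 and 4.88 in Neurog:WRPW and 6.98 and 7.89 in lacZ, without overlap. That of *Dpysl* was 4.57 and 7.50 in Neurog, 2.83 and 7.31 in Neurog:WRPW and 2.94 and 2.56 in lacZ. That of *Saxo* was 7.03 and 3.31 in Neurog, 4.07 and 0 in Neurog:WRPW and 6.45 and 5.52 in lacZ. Over the 6 libraries, log2 CPM of *alpha-Tubulin* and *Dcx* had a Pearson correlation of 0.992, the highest of the 10 pairs, and *Saxo* and *Dpysl* one of 0.569, the lowest. The 0 counts of *Saxo* in Neurog:WRPW replicate 2, set to a log2 CPM of -3.13, enter that lowest value. These are descriptions over 6 libraries in 3 conditions, which all genes share along with the libraries' depth.

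The polymer's other subunit had a gene with the same order of conditions. The *beta-tubulin* KH.L116.85 had 8355 and 4428 CPM in Neurog, 1518 and 1127 in Neurog:WRPW and 2627 and 1924 in lacZ, without overlap. Its LogFC was 1.49 in Neurog vs. lacZ (SE 0.38) and 2.27 in Neurog vs. Neurog:WRPW (SE 0.39), both called. In Neurog:WRPW vs. lacZ it was -0.78 (SE 0.38), not called, and -0.78 (SE 0.20) with the block, called, at an adjusted p of 0.589 in edgeR. The RPKM ratio of *alpha-Tubulin* to this gene was 1.12 and 1.20 in the Neurog libraries, 0.632 and 0.615 in the Neurog:WRPW libraries and 0.816 and 0.682 in the lacZ libraries. The ratio was thus highest in Neurog and lowest in Neurog:WRPW with no overlap. It was computed after the values were seen and not tested, and near-identical tubulin copies bear on it as well.

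**Figure D4:**
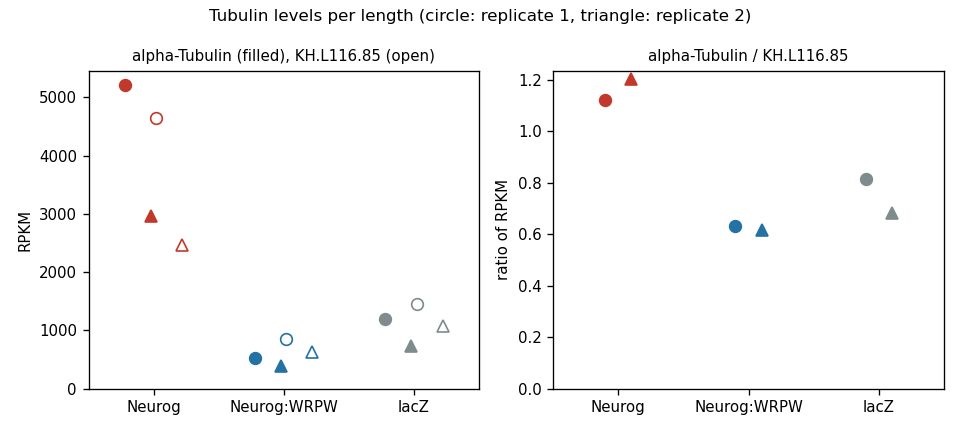
RPKM of *alpha-Tubulin* (filled) and the *beta-tubulin* KH.L116.85 (open) by library on the left, and their ratio on the right, with circles for replicate 1 and triangles for replicate 2. The ratio is 1.12 and 1.20 in Neurog, 0.632 and 0.615 in Neurog:WRPW and 0.816 and 0.682 in lacZ.

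A list of 25 further microtubule genes, named by their closest human proteins in the study's tables, was set beside the 5. The copy of those tables used here holds only genes with high values in Neurog vs. lacZ, so the direction of the list in that comparison is fixed by the choice and only values are given: 10 of 25 were called up (4.36% of all genes) and the median LogFC was 0.96, against -0.03 over all genes tested. In Neurog:WRPW vs. lacZ, which shares the lacZ libraries, genes so chosen and all genes are unlike sets. The values that follow for it are therefore a description. Of the 25, 1 fell in Neurog:WRPW vs. lacZ (1.19% of all genes), 24 were not called and 22 lay below 0, with a median of -0.50 against -0.02 over all genes, of which 52.0% lay below 0. The 1 was *Stathmin2*, of a family that binds free tubulin. By in situ hybridization the study listed this gene among those of other tissues. It had 18.4 and 16.7 CPM in Neurog, 4.49 and 2.45 in Neurog:WRPW and 9.89 and 5.62 in lacZ (LogFC -1.14, SE 0.47, in Neurog:WRPW vs. lacZ). With the block 7 of 25 fell there (3.55% of all genes), namely *Stathmin2*, *beta-tubulin*, *LIS-1*, *Dcdc2*, *Mtcl1*, *EML* and *APC*.

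Neurog vs. Neurog:WRPW uses the same Neurog libraries, so the choice of the list favours a rise there too, and the counts and values that follow are a description. In that comparison 16 of 25 were called up, against 7.08% of all genes (21 with the block, against 10.1%), 9 were not called and the median LogFC was 1.48, against -0.04 over all genes. Among tubulin and its folding factors, 2 of 2 were called up, *beta-tubulin* and the cofactor *TBCA* (LogFC 1.07, SE 0.24). Of 6 kinesin genes so chosen 5 were called up, each with a smaller LogFC than *Kif26*, a difference not tested. They were the kinesins *KIF1* (1.56, SE 0.39), *KIF13B* (1.50, SE 0.38) and *KIF2A* (1.25, SE 0.25), the light chain *KLC* (1.48, SE 0.42) and the adaptor *KIFAP3* (1.05, SE 0.40). The heavy chain *KIF5* had 853.6 and 484 CPM in Neurog, 302 and 438 in Neurog:WRPW and 314 and 436 in lacZ, and was not called.

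Still in Neurog vs. Neurog:WRPW and within the same chosen list, 1 of 4 dynein and dynactin genes was called up (7.08% of all genes), the dynein regulator *LIS-1* (LogFC 2.44, SE 0.48), whose human gene like *DCX* is mutated in lissencephaly. Of 11 genes for binding and plus-end proteins 8 were called up. The highest LogFC was that of *Mtcl1*, a microtubule crosslinker, with 450.8 and 374 CPM in Neurog, 34.4 and 5.56 in Neurog:WRPW and 75.2 and 32.2 in lacZ (LogFC 4.35, SE 0.90, in Neurog vs. Neurog:WRPW). *Dcdc2*, a further gene with doublecortin domains, had 1655 and 616 CPM in Neurog, 320.2 and 130.5 in Neurog:WRPW and 400.0 and 333 in lacZ. Its LogFC of 2.33 (SE 0.61) was smaller than that of *Dcx*, a difference not tested. By in situ hybridization the study listed *Dcdc2* among its BTN genes and *Mtcl1* as unclear. The others called up were *GAS2L* (3.58, SE 1.17), *Stathmin2* (2.32, SE 0.48), *TACC* (1.79, SE 0.38), *APC* (1.51, SE 0.42), *CLASP* (1.24, SE 0.36) and the end-binding *MAPRE* (1.08, SE 0.43). Neither of the 2 tubulin-modifying enzymes, *TTLL* (0.27, SE 0.40) and *AGBL* (1.12, SE 0.48), was called.

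**Figure D5:**
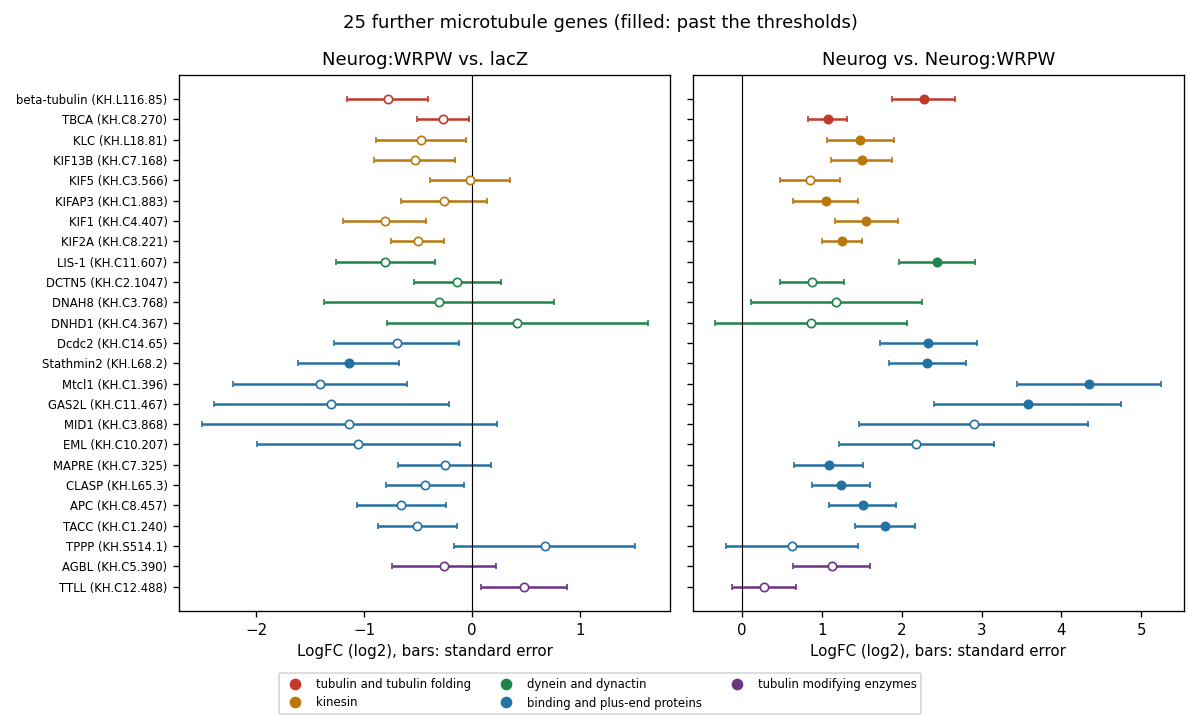
LogFC (log2, bars of 1 standard error) of the 25 further microtubule genes in Neurog:WRPW vs. lacZ (left) and Neurog vs. Neurog:WRPW (right), coloured by group and filled where past the thresholds. On the left only *Stathmin2* is filled, at -1.14, and on the right 16 of 25 are, with *Mtcl1* farthest out at 4.35.

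Each of the 5 genes was also set against the 7968 other genes with a mean of at least 8 CPM, by the Pearson correlation of log2 CPM over the 6 libraries. For *alpha-Tubulin* the 3 most alike were KH.C9.763 (named after *NMNAT* enzymes, 0.999), *Gnai-related* (KH.C2.872, 0.998) and KH.C1.1107 (0.997). For *Dcx* they were KH.C4.115 (0.999), KH.C14.433 (0.998) and KH.C13.125 (0.998). For *Saxo* they were KH.L28.8 (named after *FGF11/12/13/14*), KH.L147.11 (*SGSM1/2*) and KH.C14.467 (*LPGAT1*), from 0.997 to 0.996. The 0 of *Saxo* in Neurog:WRPW replicate 2 enters these values. For *Kif26* they were KH.C2.124 (*LCLAT1*), KH.L18.93 (*IL17RA*) and KH.C7.140, from 0.996 to 0.995. For *Dpysl* they were KH.C11.483 (*NDRG1/2/3/4*), KH.C8.280 and KH.C1.165 (*VAMP1/2/3*), from 0.994 to 0.992, with a LogFC in Neurog:WRPW vs. lacZ of -0.44, -0.33 and -0.14. None of the 15 was another of the 5 genes, and a correlation measures shape only, as KH.C1.1107 shows with a LogFC of 0.59 in Neurog vs. lacZ beside 2.09 for *alpha-Tubulin*. For *alpha-Tubulin* 482 genes were over 0.9, and for *Dpysl* 285.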

How the data were processed

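RNA-seq libraries of sorted BTN lineage cells, 2 each of *Neurog* > *Neurog*, *Neurog* > *Neurog:WRPW* and *Neurog* > *lacZ*, were analysed. The authors deposited raw counts per gene model, unpooled, 1 column per library, with gene lengths. By the study's methods, total RNA was amplified (SMART-Seq v4), reads were mapped with STAR 2.5.2b (submitters' notes), and exon reads over KyotoHoya models were counted with featureCounts after removing duplicates. Neither the assembly version nor the strand setting is given in the sources used here. Reads of overlapping or antisense genes therefore cannot be told apart.

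Genes over 1 CPM in at least 2 libraries (12253 of 15232) were TMM-scaled and fitted with 1 term per condition in edgeR 4.0.16 in R 4.3.3, using two-sided quasi-likelihood tests with Benjamini-Hochberg adjustment over all of them. The standard error is the LogFC divided by the root of F. At these totals the median SE was 0.42 in both comparisons with lacZ, with a biological coefficient of variation of 0.42. Counts carry no molecular identifiers. Alternatives were DESeq2 1.42.0, its size factors, edgeR's exact test, 2 other filters, the 2 groups alone, a replicate block, and each library left out over the same genes. Log2 CPM used a prior count of 2. The fit was tested on simulated data with known changes.

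The groups share replicate numbers, which the labels do not tie to a batch. Differences between replicates correlated at 0.54 (Neurog, Neurog:WRPW), 0.56 (Neurog, lacZ) and 0.61 (Neurog:WRPW, lacZ) over 7969 genes. From these data alone, the numbers were taken to pair the libraries in the fit with a replicate block. The main values and calls come from the fit without that block. No 2 libraries of a group matched within counting noise.

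The genes and lists were chosen with earlier results of these data known. Named were the 5 genes, *beta-tubulin*, *Dcdc2*, *Stathmin2*, list genes called in either comparison with Neurog:WRPW (*KIF5*, *TTLL*, *AGBL* and *EML* were added after their values were seen), and 3 most correlated genes for each of the 5. No KH identifier matched the RefSeq table at hand, so protein and promoter sequences were not used here, and no probe template for *alpha-Tubulin* was used here.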

Additional observations from a re-analysis of the deposited data

How the results depend on the processing

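Of 195 values of the 5 genes over 3 comparisons and 13 alternatives, 181 kept their direction and side of the thresholds, 6 lost the call, 6 gained it and 2 reversed. Of the 6 gained, 1 rests on a lone library with 0 counts of *Saxo* (Neurog:WRPW vs. lacZ, without Neurog:WRPW replicate 1), whose LogFC is not usable. The 2 reversals were *Dpysl* in Neurog:WRPW vs. lacZ, at 0.07 without Neurog:WRPW replicate 1 and 0.20 without lacZ replicate 1, in a range from -0.83 to 0.20 with 1 library left out. The number of the 5 genes that fell in Neurog:WRPW vs. lacZ ranged from 1 to 3 with 1 library left out. Genes up in Neurog vs. lacZ, 534 of all tested, ranged from 231 to 655 with 1 library left out, lowest without lacZ replicate 2 and 294 without Neurog replicate 1. Genes down in Neurog:WRPW vs. lacZ, 146, ranged from 79 without lacZ replicate 1 to 958 without Neurog:WRPW replicate 1. Genes up in Neurog vs. Neurog:WRPW, 868, ranged from 532 without Neurog replicate 1 to 1466 without Neurog:WRPW replicate 1. With the replicate block, genes up in Neurog vs. lacZ were 813 and genes down in Neurog:WRPW vs. lacZ 435. Among the 5 genes the block changed the calls of *Saxo* against lacZ (1.71 and -2.82) and no other. Genes at an adjusted p under 0.05 in Neurog vs. Neurog:WRPW were 5, and 461 with the block, 514 by DESeq2, 367 by the exact test, 31 with no filter and 0 in each fit of fewer libraries. Where a fit left a lone library in an arm, that library was assumed to vary like the other groups. The causes were not tested. Counts in Neurog:WRPW were lowest for *Saxo* (82 and 0), *Dpysl* (53 and 47) and *Kif26* (141 and 52), which limits the precision of these values.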
